A study of Homo sapiens with 8 samples.

Results

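The genes of ATM-ATR checkpoint signalling were followed in RNA-seq of control and RBM6-KO1 cells before and after ionizing radiation (IR). They were 34 genes taken by symbol from the 58233 genes of the count table, listed by their known roles. By role they comprised 4 kinases, 10 partners and mediators of ATR, 8 factors that act on the chromatin around a break, 5 subunits of the BRCA1-A complex and 7 kinases and phosphatases that set entry into mitosis. Of these, 33 passed the filter on low counts over the 8 libraries, and only ATRIP did not.

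All cells were MCF10A-Hras cells, that is, MCF10A, an immortalized line from human breast epithelium, made to carry oncogenic H-Ras. The control cells carried intact RBM6, and RBM6-KO1 is 1 knockout clone of the same line, made with a pair of guides and a Cas9 nickase, so an effect of the clone and an effect of RBM6 loss cannot be told apart. Cells were left untreated or given 5 Gy of X-rays and collected 12 h later, with 2 biological replicates, named A and B, in each of the 4 groups. The libraries held 15355281 to 29832009 counts on genes, so that 3 counts, the most that a count of 0 allows, corresponded to 0.0966 to 0.204 CPM, counts scaled to the total of the library, counting error only. Gene positions are those of GENCODE v44 on GRCh38. Levels are given as normalized CPM, that is CPM after TMM scaling over all 8 libraries.

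ATM and ATR are the apical kinases of the DNA damage checkpoint. ATM is activated at double-strand breaks and ATR at single-stranded DNA coated by RPA, where it is brought by ATRIP and stimulated by TOPBP1 or ETAA1 with the help of the RAD9A-RAD1-HUS1 clamp and its loader RAD17. They act on CHEK2 and CHEK1, which hold back the CDC25 phosphatases and so leave CDK1 and CDK2 phosphorylated by WEE1 and PKMYT1, and ATM also marks H2AX in chromatin, which starts the assembly of MDC1, RNF8, RNF168, TP53BP1 and the BRCA1-A complex. Most of this signalling runs through phosphorylation and ubiquitin and is not visible in mRNA counts.

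The identity of the cells was checked first. Of the 8 breast epithelial markers examined, all were detected in every library, among them KRT5 at 1060 to 1620 normalized CPM, and 3 of them passed the test between the untreated genotypes. EPCAM and KRT18 were lower in RBM6-KO1 cells, by -1.79 and -0.63 on the log2 scale (edgeR adjusted p = 4.43e-05 and 0.0175), and KRT14 was higher, by 0.78 (adjusted p = 0.0156). Of the 5 markers of other cell types, PTPRC of leukocytes had 0 to 2 counts and COL3A1 of fibroblasts 0 to 1 counts in any library, and PECAM1, COL1A1 and PDGFRB together summed to 13.6 to 16.8 normalized CPM in control cells and 9.8 to 13.1 in RBM6-KO1 cells. PECAM1 of endothelium was higher in every RBM6-KO1 library (3.15 to 6.33) than in any control library (1.13 to 2.36), and COL1A1 of fibroblasts was lower in every RBM6-KO1 library (5.06 to 9.23 against 11.5 to 14.4). PDGFRB of fibroblasts was higher after IR in control cells, at 1.10 and 1.71 normalized CPM from 0.307 and 0.0536. The part of these differences in the results was not tested. RBM6 mRNA itself lay at 61.5 and 63.2 normalized CPM in untreated RBM6-KO1 cells and at 66.9 and 68.8 in control cells, so gene counts did not report on the deletion. Replicates of each group differed by more than counting noise, and p-values here measure the spread between 2 libraries.

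The start regions are shown for 6 of the 7 members that passed the test in a comparison, since several of them fell together after IR. The seventh, PKMYT1, had no window. RefSeq windows of 250 bases before and 50 after a transcription start (GRCh38.p14) matched 29 of the 34 members. They were searched on both strands for 3 elements of cell-cycle promoters, the E2F element (TTTCCCGC, TTTGGCGC, TTTCGCGC or TTTGCCGC), the CHR element (TTTGAA or TTCGAA) and the CCAAT box (CCAAT). An E2F element was found in 5 of the 29 members (CDC25A, CDK1, CLSPN, TIPIN and TOPBP1), or 17.2%, against 3.99% of the 27305 genes with a window. A CHR element was found in 8, or 27.6%, against 19.5%, and a CCAAT box in 20, or 69.0%, against 39.7%. A gene was counted if any of its windows matched, so genes with more windows had more occasions to match. The 27305 genes had 35116 windows, and CDC25B and CDC25C had 4 each. The shares were not adjusted for the number of windows. The regions are printed from 250 bases before to 10 bases after the start, 5′ to 3′ on the strand of the gene, with the matched letters of any of the 3 elements on either strand in capitals. CDC25B has 4 RefSeq windows, and the one whose start is also a GENCODE v44 transcript start is printed.
CLSPN chr1:35769969-35770228 (minus strand): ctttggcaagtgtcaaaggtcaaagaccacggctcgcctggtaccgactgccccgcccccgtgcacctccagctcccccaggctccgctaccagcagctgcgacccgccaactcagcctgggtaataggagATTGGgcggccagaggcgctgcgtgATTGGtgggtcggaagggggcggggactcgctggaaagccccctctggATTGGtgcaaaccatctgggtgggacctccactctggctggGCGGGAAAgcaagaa
RIF1 chr2:151409652-151409911 (plus strand): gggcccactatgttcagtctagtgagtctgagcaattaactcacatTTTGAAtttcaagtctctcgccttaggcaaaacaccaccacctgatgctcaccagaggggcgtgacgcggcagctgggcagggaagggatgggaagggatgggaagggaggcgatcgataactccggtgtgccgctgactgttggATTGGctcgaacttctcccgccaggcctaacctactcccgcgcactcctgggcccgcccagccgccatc
H2AX chr11:119095456-119095715 (minus strand): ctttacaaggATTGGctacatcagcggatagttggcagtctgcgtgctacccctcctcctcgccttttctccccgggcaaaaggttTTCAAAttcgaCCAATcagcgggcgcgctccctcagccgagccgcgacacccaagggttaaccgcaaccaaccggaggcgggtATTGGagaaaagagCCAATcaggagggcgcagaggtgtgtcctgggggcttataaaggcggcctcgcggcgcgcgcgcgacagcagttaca
RAD9A chr11:67391736-67391995 (plus strand): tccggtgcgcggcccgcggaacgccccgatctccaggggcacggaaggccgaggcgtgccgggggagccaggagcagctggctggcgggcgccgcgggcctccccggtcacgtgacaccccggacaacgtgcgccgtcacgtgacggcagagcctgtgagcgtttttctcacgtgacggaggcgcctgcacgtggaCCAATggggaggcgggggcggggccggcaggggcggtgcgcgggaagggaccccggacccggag
CDC25B chr20:3796060-3796319 (plus strand): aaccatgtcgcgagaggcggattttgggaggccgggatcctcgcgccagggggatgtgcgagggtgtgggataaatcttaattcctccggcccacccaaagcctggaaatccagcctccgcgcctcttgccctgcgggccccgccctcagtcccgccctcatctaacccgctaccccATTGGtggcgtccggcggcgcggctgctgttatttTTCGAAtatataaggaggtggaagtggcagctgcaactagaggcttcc
ATR chr3:142578724-142578983 (minus strand): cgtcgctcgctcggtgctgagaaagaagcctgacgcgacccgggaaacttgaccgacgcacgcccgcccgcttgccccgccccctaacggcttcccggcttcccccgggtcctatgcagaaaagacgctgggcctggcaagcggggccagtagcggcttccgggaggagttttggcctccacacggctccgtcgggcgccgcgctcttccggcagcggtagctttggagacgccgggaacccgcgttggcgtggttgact
In CLSPN an E2F element lay across the start itself, its first base at position -5, behind 3 CCAAT boxes. H2AX had 4 CCAAT boxes and a CHR element at position -164, and RIF1 a CHR element at position -204 and a CCAAT box at position -59. RAD9A held only a CCAAT box, at position -54, and CDC25B a CCAAT box at position -73 and the CHR letters TTCGAA at position -38. The window of ATR held none of these letters, which says nothing about the factors. A match of letters is a description of the window and not a sign that a factor binds there. Of the members with an E2F element, CLSPN, TIPIN and CDC25A lay below 0 after IR in RBM6-KO1 cells, and CDK1 and TOPBP1 above. The part of these elements in the change after IR was not tested.

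Levels of the members in untreated control cells spanned a wide range when scaled to the length of the canonical transcript. CDC25B was highest at 171 normalized CPM per kb, with H2AX next at 48.6 and CDK1 at 37.6, and its lower replicate (164) lay above the higher replicate of H2AX (52.0). CDK1, at 44.5 and 30.7 per kb in the 2 replicates, did not separate from H2AX at 52.0 and 45.3 by more than its own spread. At the other end, ATR (1.99), RIF1 (2.13), ETAA1 (2.15) and PAXIP1 (2.28) had overlapping replicates, and ABRAXAS1 had 1.08 normalized CPM per kb. ATRIP, the partner that brings ATR to RPA, had 0 to 5 counts in every library and was not tested. TREX1, annotated on the same strand over 26.66% of the exon bases of ATRIP, had 0 counts in every library, so the value of ATRIP is uncertain, since counting reads that fall in both genes can remove them from either.

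**Figure D1:**
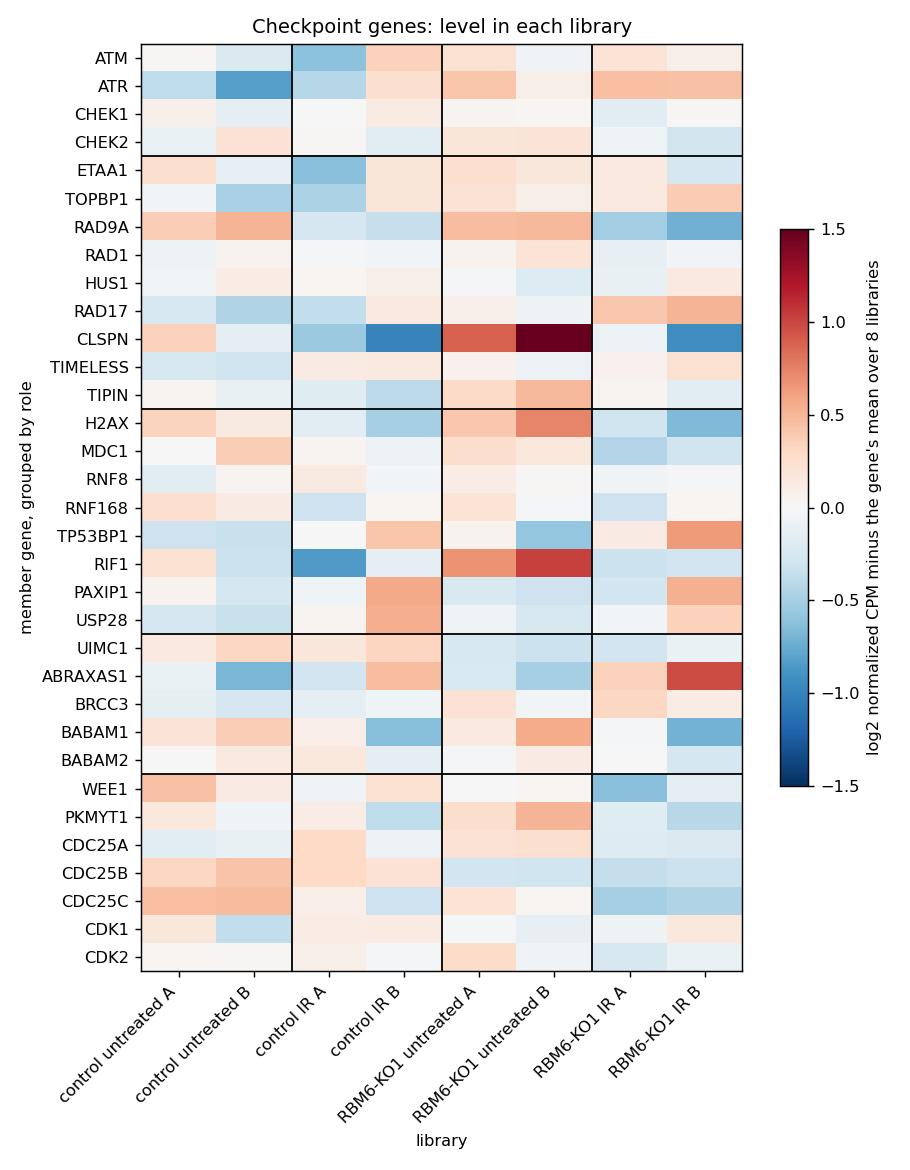
Level of each of the 33 tested members (rows, grouped by role) in each of the 8 libraries (columns), as log2 normalized CPM minus the gene's mean over the libraries. CLSPN and RIF1 are darkest red in untreated RBM6-KO1 cells, RAD9A and H2AX are red in untreated and blue in irradiated cells of both genotypes, and CDC25B is red in the 4 control libraries and blue in the 4 RBM6-KO1 libraries.

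RBM6-KO1 cells were first compared with control cells without irradiation, which asks whether loss of RBM6 alters the checkpoint genes before damage. Of the 33 members tested, CLSPN, RIF1 and ATR were higher and CDC25B was lower in RBM6-KO1 cells at an adjusted p under 0.05 (edgeR's quasi-likelihood test, Benjamini-Hochberg adjustment over 15556 genes). These were 4 of 33 members against a background of 6.12% of all genes in either direction, 2.38% higher and 3.73% lower. With the additional requirement of a 2-fold change, which the study also used, 1 member (CLSPN) was left, against 3.12% of all genes. At an unadjusted p under 0.05 there were 7 members, against 18.4% of all genes.

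CLSPN encodes claspin, the mediator that hands CHEK1 to ATR at stalled forks (ENSG00000092853, chr1:35720218-35769978, minus strand). It had 31.4 and 22.4 normalized CPM in untreated control cells and 45.4 and 69.3 in untreated RBM6-KO1 cells. Both knockout libraries lay above both control libraries, although the knockout replicates themselves were far apart. The difference of 1.08 on the log2 scale, or 2.11-fold, had a standard error of 0.206 and an adjusted p = 0.00322 in edgeR. Without replicate B of the untreated knockout it was 0.76, under 2-fold.

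RIF1 acts with TP53BP1 to restrain resection of broken ends (ENSG00000080345, chr2:151409883-151508013, plus strand). It was at 37.2 and 25.3 normalized CPM in control cells and at 50.6 and 64.4 in RBM6-KO1 cells, again without overlap. It differed by 0.86 on the log2 scale (SE, standard error, 0.192, edgeR adjusted p = 0.00946). With the trend in GC content, length and expression removed the difference was 0.6.

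ATR itself (ENSG00000175054, chr3:142449007-142578733, minus strand) was at 18.7 and 13.8 normalized CPM in control cells and at 32.4 and 26.0 in RBM6-KO1 cells. The lower knockout library stood above the higher control library, a log2 difference of 0.84 (SE 0.207, edgeR adjusted p = 0.0194), or 0.55 with the trend in GC content, length and expression removed. The other 3 kinases had estimates close to 0. ATM (ENSG00000149311, chr11:108223044-108369102, plus strand) had 40.8 and 34.7 normalized CPM in control and 47.5 and 38.9 in RBM6-KO1 cells, a log2 difference of 0.18 (SE 0.174, adjusted p = 0.652). CHEK1 (ENSG00000149554, chr11:125625163-125676255, plus strand) had 37.3 and 32.3 against 36.6 and 36.1, and CHEK2 (ENSG00000183765, chr22:28687743-28742422, minus strand) had 26.7 and 33.0 against 32.4 and 32.7. Replicates of ATM, CHEK1 and CHEK2 overlapped between the genotypes, and their adjusted p-values in edgeR were 0.652 to 0.918.

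CDC25B, a phosphatase that activates CDK1 at the onset of mitosis, moved the other way (ENSG00000101224, chr20:3786772-3806121, plus strand). It was at 512 and 554 normalized CPM in control cells and at 338 and 334 in RBM6-KO1 cells. The replicates of each genotype lay close together and the gap between the genotypes was several times wider, with a log2 fold change of -0.68 (SE 0.136, edgeR adjusted p = 0.00442), or 1.60-fold lower. It was -0.52 with the trend in GC content, length and expression removed.

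Among the remaining ATR partners, TOPBP1, RAD1, RAD17, TIMELESS and TIPIN also had both RBM6-KO1 libraries above both control libraries, with log2 fold changes of 0.13 to 0.41, and none passed the test. RAD9A, ETAA1 and HUS1 overlapped between genotypes. Across all 33 members, 12 had both knockout libraries higher and 4 had both lower, against 22.7% and 24.9% of all genes. The median log2 fold change of the members was 0.108 and that of all genes 0.0072, with 24 members above 0 and 9 below where 51.0% of all genes lay above 0.

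In the chromatin arm, H2AX, the histone variant whose phosphorylated form marks breaks (ENSG00000188486, chr11:119093874-119095465, minus strand), had 82.7 and 72.1 normalized CPM in control and 86.9 and 109 in RBM6-KO1 cells (log2 fold change 0.32, SE 0.154, edgeR adjusted p = 0.271). TP53BP1 (ENSG00000067369, chr15:43403061-43510728, minus strand) had 33.3 and 32.8 against 43.0 and 27.7, so its knockout replicates enclosed the control ones. MDC1, RNF8, RNF168, PAXIP1 and USP28 had log2 fold changes between -0.18 and 0.14. Of the BRCA1-A complex, UIMC1, which reads ubiquitin at breaks, was at 48.8 and 54.8 normalized CPM in control cells and at 37.4 and 35.2 in RBM6-KO1 cells and just missed the threshold (log2 fold change -0.53, edgeR adjusted p = 0.0651). Its partners ABRAXAS1, BRCC3, BABAM1 and BABAM2 lay between -0.04 and 0.27.

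Of the 4 calls in untreated cells, 3 were lost when 1 control library was left out. Without replicate B of untreated control cells only CLSPN passed, while RIF1 differed by 0.63 on the log2 scale (edgeR adjusted p = 0.184), ATR by 0.64 (adjusted p = 0.212) and CDC25B by -0.61 (adjusted p = 0.208). The share of all genes passing was then 3.18%, and ATR was also lost when replicate A of the untreated knockout was left out. In 1 fit over all 8 libraries CDC25B alone passed, when 3.08% of all genes did, and CLSPN had an edgeR adjusted p of 0.0913.

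**Figure D2:**
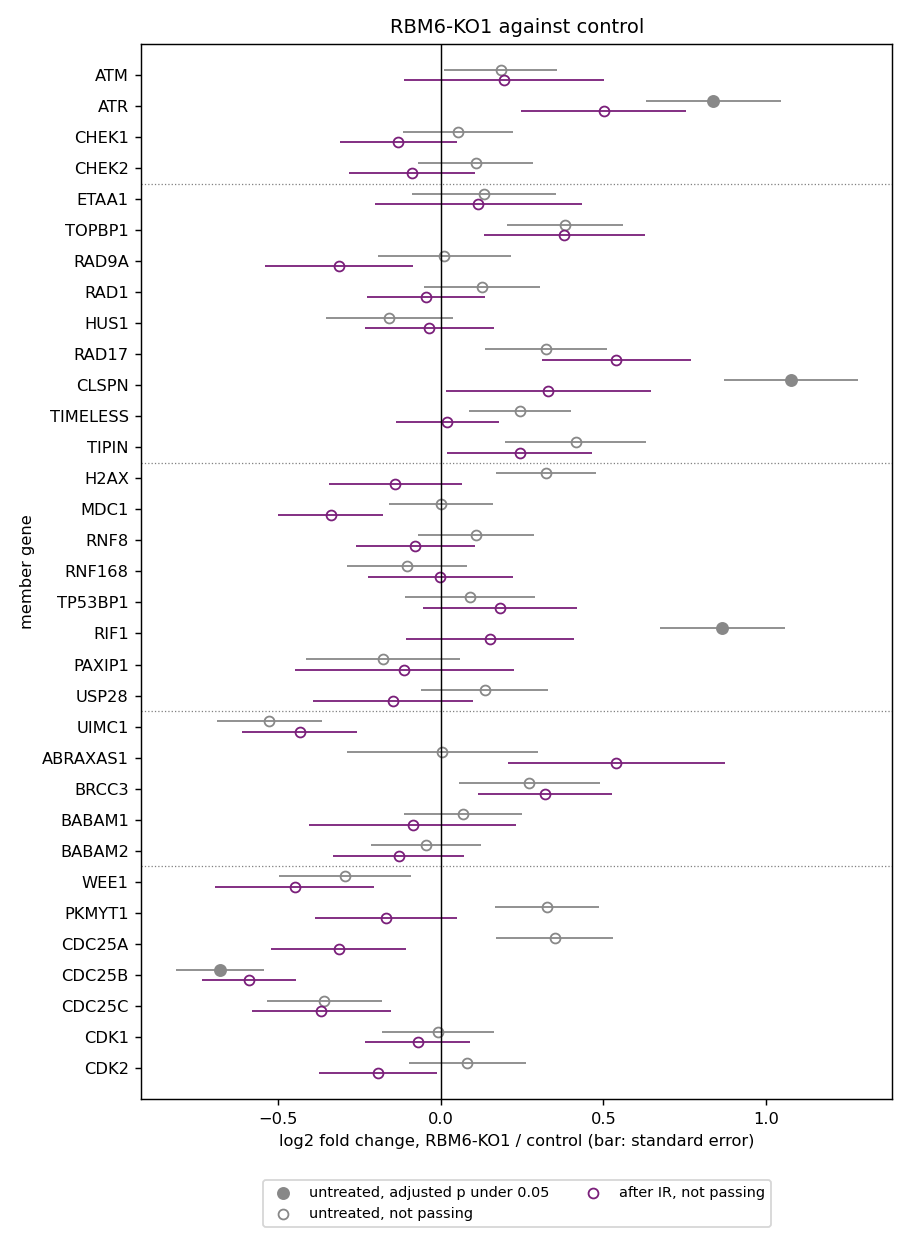
Log2 fold change of RBM6-KO1 over control for each member, untreated (grey) and after IR (purple), with bars of 1 standard error and filled points where the adjusted p was under 0.05. The 4 filled points are ATR, CLSPN and RIF1 to the right and CDC25B to the left, all untreated, and no purple point is filled.

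After IR the same comparison gave no member at an adjusted p under 0.05 with edgeR, and none with DESeq2's Wald test, where 1.21% of all 15587 genes passed in edgeR. At an unadjusted p under 0.05 there were 3 members, CDC25B, UIMC1 and RAD17, or 3 of 33 against 11.1% of all genes. CDC25B was at 507 and 477 normalized CPM in irradiated control cells and at 322 and 330 in irradiated RBM6-KO1 cells, a separation much like that before IR, with a log2 fold change of -0.59 (SE 0.143, edgeR adjusted p = 0.135). It passed under 3 of the 11 ways of fitting that gave a test. CLSPN, at 16.8 and 12.3 normalized CPM in control and 23.3 and 12.9 in RBM6-KO1 cells, and RIF1, at 17.6 and 28.5 against 25.4 and 25.9, overlapped between genotypes after IR. ATR stayed without overlap, at 18.1 and 28.7 against 33.4 and 33.0, with a log2 fold change of 0.50 (SE 0.253, edgeR adjusted p = 0.553). That value was 0.20 without replicate A of irradiated control cells and 0.88 without replicate B, and ATR passed under 1 of the 11 ways of fitting.

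The 7 genes of mitotic entry all had a log2 fold change below 0 after IR, between -0.59 and -0.07, and 5 of them (WEE1, CDC25A, CDC25B, CDC25C and CDK2) had both RBM6-KO1 libraries below both control libraries. Below 0 there were also 10 of 10 regulators of mitotic entry outside the members (6 without overlap) and 14 of 16 genes of the G2 and M phases (12 without overlap, median -0.351), none of which passed the test. CCNB1, CCNB2, PLK1, AURKA and BUB1 belong to both lists and are counted in each. Over all members 4 were higher and 9 lower without overlap, against 18.9% and 19.9% of all genes. The median was -0.0772 for the members and 0.0151 for all genes, and 12 members lay above 0 and 21 below where 52.3% of all genes lay above.

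The 2 irradiated control libraries differed from each other in a way that touched these members. The log2 ratio of replicate B to replicate A had a Spearman correlation with the GC content of the gene's transcripts of -0.679 over the 33 members and -0.38 over all genes, and with exon length of 0.638 and 0.365. These points share 2 libraries and the correlation is a description. In the untreated control pair, on which the calls in untreated cells rest, the same ratio ran the other way, at 0.631 with GC content over the members and 0.383 over all genes, and at -0.436 and -0.168 with exon length. ATM was at 26.3 in replicate A and 51.5 in replicate B, whereas H2AX was at 58.4 and 46.4 and PKMYT1 at 49.9 and 35.6. The log2 fold change of RBM6-KO1 over control after IR likewise correlated with GC content over the members, at -0.629 against -0.318 over all genes. The part of GC content in each result was not tested beyond the values given with the trend removed.

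**Figure D3:**
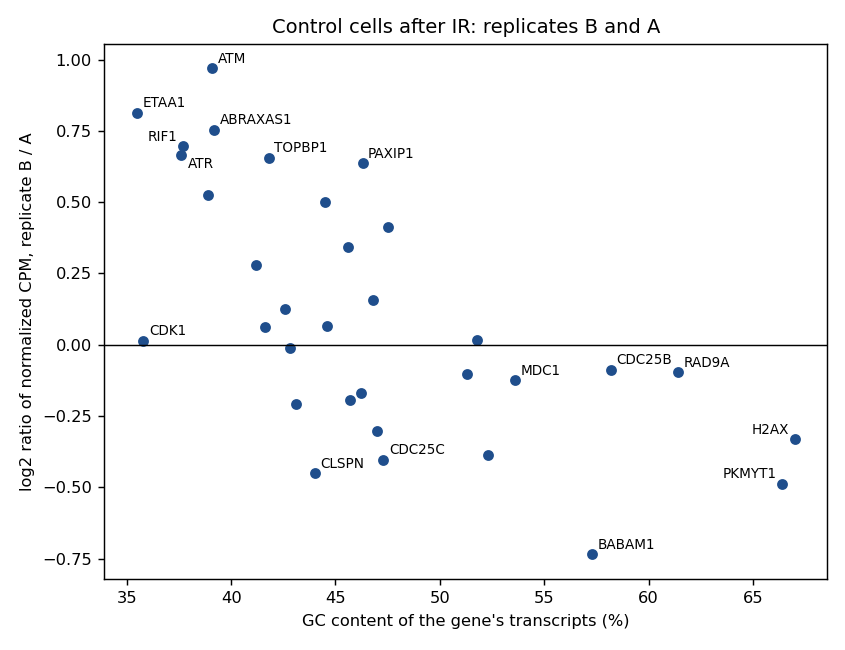
Log2 ratio of normalized CPM in replicate B over replicate A of irradiated control cells against the GC content (%) of each member's transcripts, 1 point per member for 33 members. Points fall from upper left, where ATM and ETAA1 lie, to lower right, where PKMYT1 and BABAM1 lie.

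The response to IR was then taken within each genotype. In control cells no member passed with edgeR, where 5.72% of 15412 genes did. DESeq2's Wald test gave 1 (CLSPN), where 3.71% of all genes passed. At an unadjusted p under 0.05 there were 7 members, against 25.4% of all genes. CLSPN went from 31.4 and 22.4 normalized CPM untreated to 16.8 and 12.3 after IR (log2 fold change -0.90, edgeR adjusted p = 0.0571). RAD9A, the clamp subunit that holds TOPBP1 (ENSG00000172613, chr11:67317871-67398410, plus strand), went from 12.6 and 13.9 to 8.22 and 7.69 (log2 fold change -0.75, adjusted p = 0.0766), and H2AX from 82.7 and 72.1 to 58.4 and 46.4 (log2 fold change -0.57, adjusted p = 0.0807). None of these overlapped, but each missed the threshold. Of the 11 other ways of fitting that gave a test, CLSPN passed under 5 and RAD9A and H2AX under 2 each. TP53BP1 had 33.3 and 32.8 before and 41.4 and 55.1 after IR (log2 fold change 0.54, adjusted p = 0.123). Without overlap, 4 members were higher and 8 lower after IR, against 28.8% and 28.2% of all genes, and the median was -0.0038 beside 0.0167 for all genes. Of the members 16 lay above 0 and 17 below, with 51.5% of all genes above. Without replicate A of irradiated control cells 10 members passed, when 27.8% of all genes did.

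In RBM6-KO1 cells 5 members fell after IR, and none rose, at an adjusted p under 0.05. These were CLSPN, RIF1, RAD9A, H2AX and PKMYT1, or 5 of 33 members, where 5.67% of all 15598 genes passed in either direction, 3.23% fell and 2.44% rose. At an unadjusted p under 0.05 there were 12 members, against 29.6% of all genes. The first 4 of them also fell by at least 2-fold, against 3.11% of all genes in either direction.

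CLSPN went from 45.4 and 69.3 normalized CPM untreated to 23.3 and 12.9 after IR, a log2 fold change of -1.67 (SE 0.289, edgeR adjusted p = 0.0190), or 3.19-fold lower. Its irradiated libraries lay below both untreated RBM6-KO1 libraries and overlapped those of irradiated control cells (16.8 and 12.3). RIF1 went from 50.6 and 64.4 to 25.4 and 25.9, a log2 fold change of -1.18 (SE 0.176, edgeR adjusted p = 0.0134). RAD9A went from 13.4 and 13.7 to 6.81 and 5.93, a log2 fold change of -1.10 (SE 0.208, edgeR adjusted p = 0.0250). Both genes had tight replicates on at least 1 side and a wide gap between untreated and irradiated cells. CLSPN and RIF1 were also called higher in untreated RBM6-KO1 cells than in control cells. For each gene the 2 calls used the same untreated RBM6-KO1 libraries and are not independent.

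H2AX went from 86.9 and 109 to 53 and 41.5 normalized CPM, a log2 fold change of -1.07 (SE 0.184, edgeR adjusted p = 0.0190). H2AX has a short transcript rich in G and C, known also in a form without a poly(A) tail that the library kit would not capture. With the trend in GC content, length and expression removed the change was -0.58 in RBM6-KO1 cells and -0.07 in control cells. PKMYT1, the membrane-bound kinase that inhibits CDK1 (ENSG00000127564, chr16:2968024-2980479, minus strand), went from 55.7 and 65.6 to 40.9 and 34.6, a log2 fold change of -0.70 (SE 0.170, edgeR adjusted p = 0.0474). With the same trend removed its change was -0.467. In control cells PKMYT1 had 51.5 and 44.3 untreated and 49.9 and 35.6 after IR, which overlapped.

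**Figure D4:**
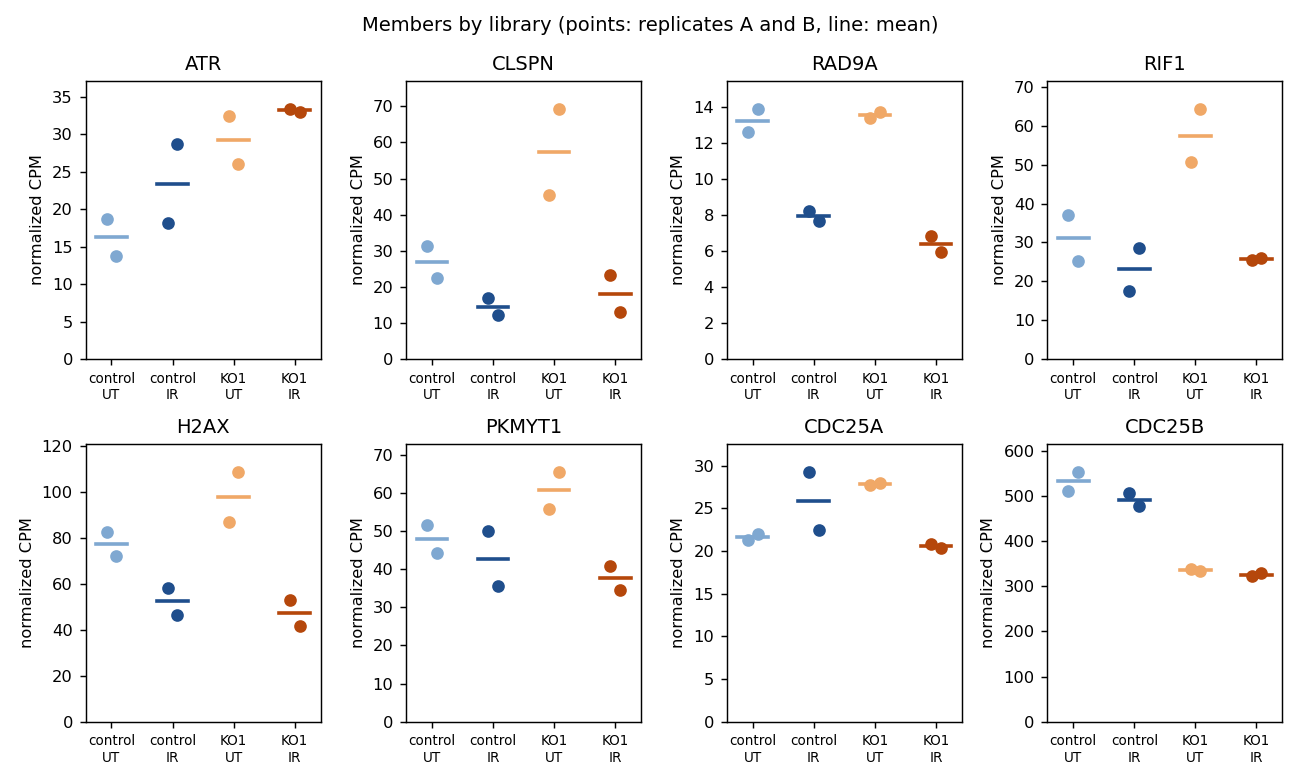
Normalized CPM of 8 members in each library, with points for replicates A and B and a line at their mean, in untreated (UT) and irradiated (IR) control and RBM6-KO1 (KO1) cells. CLSPN and RIF1 are highest in untreated RBM6-KO1 cells, RAD9A and H2AX are lower after IR in both genotypes, and CDC25B follows genotype and not IR.

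The calls for CLSPN, RIF1, RAD9A and H2AX held under all 11 ways of fitting that gave a test, while PKMYT1 passed under 7 of them and was lost, among others, without replicate B of either RBM6-KO1 group. Without replicate A of irradiated RBM6-KO1 cells 9 members passed, when 21.8% of all genes did. ABRAXAS1, the scaffold of BRCA1-A, had the largest log2 fold change upward, 1.03, from 5.01 and 4.15 to 7.43 and 11.5 normalized CPM (edgeR adjusted p = 0.0557). Of its exon bases 25.41% are shared with MRPS18C on the opposite strand, and since the strand setting of the counting is not given in the sources used here, reads of the pair may not be told apart. The same holds for TP53BP1 and TUBGCP4 (28.76%) and for PKMYT1 and PAQR4 (24.69%). RAD9A shares 5.52% of its exon bases with PPP1CA on the opposite strand, which had 2192 to 3856 counts per library against 121 to 260 for RAD9A, and RAD17 shares 9.14% with TAF9. MDC1, the scaffold that binds phosphorylated H2AX, was at 80.4 and 74.5 before and 49.4 and 54.4 after IR, just outside the threshold (log2 fold change -0.59, adjusted p = 0.0515).

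None of the 4 kinases passed the test after IR in either genotype with all libraries in the fit. ATR went from 18.7 and 13.8 normalized CPM to 18.1 and 28.7 in control cells (log2 fold change 0.52, edgeR adjusted p = 0.237), and the irradiated replicates enclosed the higher untreated one. Without replicate A of irradiated control cells that change was 0.83 and passed (adjusted p = 0.00344), and without replicate B it was 0.14. In RBM6-KO1 cells ATR had 32.4 and 26.0 before and 33.4 and 33.0 after IR (log2 fold change 0.17), both irradiated values being above both untreated ones. There ATM had 47.5 and 38.9 before and 46.4 and 43.0 after IR, CHEK1 had 36.6 and 36.1 before and 31.8 and 35.8 after, and CHEK2 had 32.4 and 32.7 before and 27.2 and 23.5 after. In control cells CHEK1 had 35.5 and 38.7 and CHEK2 had 28.9 and 25.3 after IR, within or next to the untreated values. The log2 fold changes of the kinases spanned -0.15 to 0.52 in the control genotype and -0.37 to 0.17 in the knockout, with adjusted p-values of at least 0.181. TP53BP1 in RBM6-KO1 cells had 43.0 and 27.7 before and 44.9 and 64.5 after IR (log2 fold change 0.61, adjusted p = 0.130).

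Over all members in RBM6-KO1 cells, 5 were higher and 19 lower after IR without overlap, against 31.2% and 30.9% of all genes, and the median log2 fold change was -0.1957 beside -0.0059. Above 0 lay 13 members and below 0 lay 20, with 49.6% of all genes above. With the trend in GC content, length and expression removed the median was -0.328, and with 1 library left out it was -0.148 to -0.086. By role, the median was -0.0458 for the kinases, -0.2334 for the ATR partners, -0.1843 for the chromatin arm, 0.0706 for BRCA1-A and -0.3801 for mitotic entry.

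**Figure D5:**
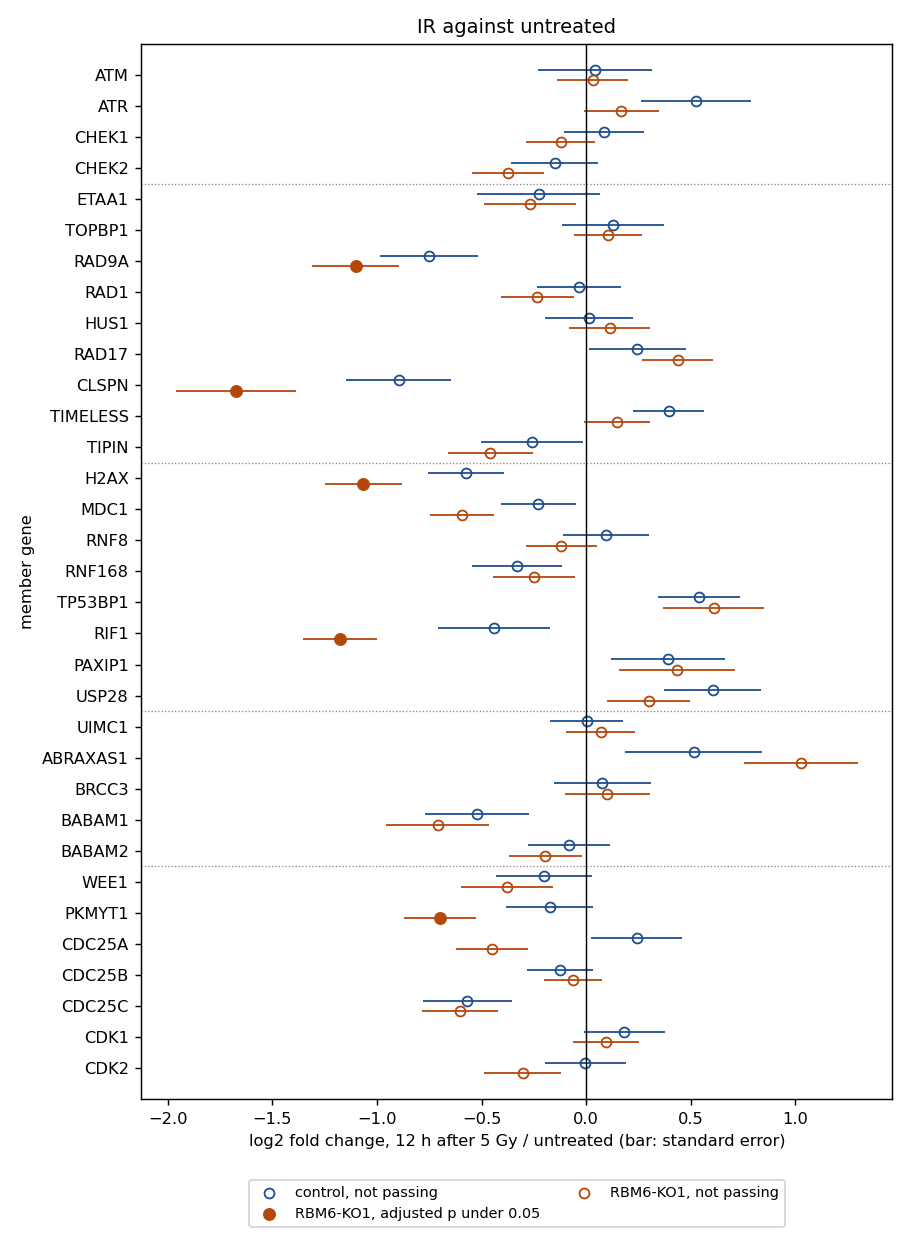
Log2 fold change after IR over untreated for each member in control (blue) and RBM6-KO1 (orange) cells, with bars of 1 standard error and filled points where the adjusted p was under 0.05. The 5 filled points, RAD9A, CLSPN, H2AX, RIF1 and PKMYT1, are all orange and left of 0, and the blue points of CLSPN, RAD9A and H2AX lie left of 0 as open circles.

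Whether the response to IR differed between genotypes was tested by the interaction over all 8 libraries. No member passed with edgeR or with DESeq2, and neither did any of the 16549 genes tested in edgeR (0.0%). At an unadjusted p under 0.05 there was 1 member, against 1.85% of all genes. For the 5 genes that passed in RBM6-KO1 cells, the interaction was -0.77 for CLSPN (unadjusted p = 0.104), -0.73 for RIF1 (unadjusted p = 0.0631), -0.52 for PKMYT1 (unadjusted p = 0.0838), -0.49 for H2AX (unadjusted p = 0.0907) and -0.34 for RAD9A (unadjusted p = 0.225). Each had an adjusted p of 1.0 in edgeR. The larger fall in RBM6-KO1 cells was therefore not shown to differ from that in control cells. Of the 33 members 24 had an interaction estimate below 0 and 9 above (48.7% of all genes were above), with a median of -0.1798 beside -0.0071 for all genes. All 16 of the G2/M genes and all 14 of the G1/S genes of the cell-cycle lists also had an interaction estimate below 0, with medians of -0.3405 and -0.3912.

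Genes of the same pathway outside the members, from lists chosen with earlier results of these data known, gave the setting of these changes. Of the 5 genes of the p53 arm, 3 passed as higher after IR in control cells and 2 in RBM6-KO1 cells. Of all genes 5.72% and 5.67% passed in either direction. Above 0 lay 5 of the arm in control cells and 4 in RBM6-KO1 cells. CDKN1A, the CDK inhibitor, was at 470 and 449 normalized CPM in untreated control cells and 1720 and 1500 after IR, while RBM6-KO1 cells had 402 and 383 untreated and 1610 and 1610 after IR. Its log2 fold changes were 1.80 (adjusted p = 0.000536) and 2.02 (adjusted p = 0.00051). MDM2, the ubiquitin ligase of p53, rose by 1.41 and 1.23 on the log2 scale, and PPM1D, the phosphatase that reverses ATM signalling, by 1.26 and 1.31. All 3 genes were higher after IR without overlap in both genotypes.

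No gene of the RPA and clamp partners (6 tested), the TP53BP1 effectors (6 tested) or the ubiquitin and BRCA1 partners (6 tested) passed in any of the 4 comparisons. BRCA1 came closest, with a log2 fold change of 0.68 in untreated RBM6-KO1 over control cells (edgeR adjusted p = 0.0537). Among 11 genes of CDC25 and WEE1 turnover, SFN alone passed, falling in RBM6-KO1 cells after IR (log2 fold change -0.82, adjusted p = 0.0456).

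Genes expressed in the G2 and M phases moved with IR in the same libraries. Between the untreated genotypes 6 of these 16 genes lay above 0 and 10 below, with a median of -0.0402, and CENPF alone passed (log2 fold change 0.76, edgeR adjusted p = 0.0067). After IR all 16 lay below 0 in both genotypes, with medians of -0.7871 in control and -1.1421 in RBM6-KO1 cells on the log2 scale. At an adjusted p under 0.05 in edgeR, 10 passed in control cells and 14 in RBM6-KO1 cells. Of all genes 5.72% and 5.67% passed in either direction. Of 10 cyclins, kinases and regulators of mitotic entry outside the members, 9 lay below 0 in control cells and 10 in RBM6-KO1 cells. Of these, 4 and 6 passed as lower. These lists share CCNB1, CCNB2, PLK1, AURKA and BUB1, which are counted in each. PLK1, the kinase that drives recovery from the checkpoint, fell by 1.23 and 1.43 on the log2 scale. CDK1, a member, did not follow them, at 84.1 and 57.9 normalized CPM untreated and 80.7 and 81.5 after IR in control cells and 73.8 and 68.7 against 70.5 and 83.3 in RBM6-KO1 cells. CDC25C, another member and a phosphatase of CDK1, had 32.5 and 33.0 before and 25.4 and 19.2 after IR in control cells (log2 fold change -0.57, adjusted p = 0.129) and 27.4 and 24.2 before and 16.9 and 17.4 after in RBM6-KO1 cells (log2 fold change -0.60, adjusted p = 0.0719).

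Of 14 genes expressed at the G1/S transition, 4 passed as lower after IR in RBM6-KO1 cells, where 3.23% of all genes did. Among them was E2F1 (log2 fold change -1.36, edgeR adjusted p = 0.0120). Of the 14, 10 lay below 0 in RBM6-KO1 cells and 4 above. In control cells 8 lay above 0 and 6 below. There 1 passed as higher and 1 as lower, where 5.72% of all genes passed in either direction. E2F1 was lower after IR there too, at 20.4 and 19.4 normalized CPM untreated and 12.2 and 8.76 after IR. In untreated cells 13 of the 14 had a log2 fold change above 0 in RBM6-KO1 over control and 1, E2F1, passed (0.64, adjusted p = 0.0459), and 51.0% of all genes were above 0. The median level of the G1/S genes, relative to each gene's mean over the libraries, was 0.183 and 0.182 in the untreated knockout libraries, 0.073 and -0.15 in untreated control cells and -0.228 and -0.113 in irradiated RBM6-KO1 cells. CLSPN and RIF1 were also highest in the untreated knockout libraries, and the part of cell-cycle phase in their change was not tested. In bulk RNA, fewer cells in a phase and less RNA of a gene per cell cannot be told apart.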

How the data were processed

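The RNA came from MCF10A-Hras control and RBM6-KO1 cells, and poly(A) libraries were made from it. Reads had been aligned to hg38 by the authors, who deposited a table of whole-number counts for each Ensembl gene, not normalized. STAR and DESeq2 are named in the submitters' processing notes, while the counting tool, annotation and strandedness are not given in the sources used here. Symbols were taken from GENCODE v44 (57392 of 58233 identifiers).

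The analysis used edgeR 4.0.16 in R 4.3.3 (TMM, filterByExpr, quasi-likelihood test, Benjamini-Hochberg adjustment over all genes tested), each comparison on its own libraries and the interaction on all 8. Standard errors were the size of the log2 fold change divided by the root of F. Scripts were tested on simulated data. Full values are given for members passing in at least 1 of the 4 pairwise comparisons and for ATM, ATR, CHEK1, CHEK2, H2AX and TP53BP1, and other members named with values were chosen after their values were seen. Members and lists were chosen with earlier results of these data known. Alternatives were DESeq2 1.42.0, 2 other normalizations, other filters, 1 fit over all libraries, a 2-fold rule, a replicate block, removal of the trend in GC content, length and expression, and each library left out.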

Additional observations from a re-analysis of the deposited data

Results flagged for a closer look

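CDC25A, the phosphatase that activates CDK2 and is degraded after CHEK1 acts on it, had both irradiated libraries above both untreated libraries in control cells and both below in RBM6-KO1 cells. It was at 21.3 and 22.0 normalized CPM untreated and 29.3 and 22.4 after IR in control cells, and at 27.7 and 28.0 untreated and 20.8 and 20.4 after IR in RBM6-KO1 cells. The gene was singled out because irradiated and untreated libraries did not overlap, in opposite directions in control and RBM6-KO1 cells. Of all genes 28.8% were higher without overlap in control cells and 30.9% lower without overlap in RBM6-KO1 cells. The share of all genes meeting both is not given here. The test that follows used the same libraries as this choice. The difference between the genotypes in the response to IR was -0.68 on the log2 scale (standard error 0.250, edgeR unadjusted p = 0.0196 and adjusted p = 1.0), so it failed the correction over all genes. In control cells the direction rested largely on replicate A: without that library the log2 fold change was 0.05.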

How the results depend on the processing

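Of the 4 members passing in untreated cells, 1 was left in 1 fit over all 8 libraries, when 3.08% of all genes passed. With the 2-fold rule 1 was left, against 3.12% of all genes. Without replicate B of untreated control cells the log2 differences of RIF1 and ATR were 0.625 and 0.642. After IR the genotypes gave no passing member in the main fit. There was 1 with no filter and 1 in 1 fit over all 8 libraries (CDC25B in each), when 2.36% and 2.88% of all genes passed. The replicate block gave 7 (ABRAXAS1, ATR, CDC25B, MDC1, RAD17, TOPBP1 and UIMC1), when 15.5% of all genes passed. For IR in control cells the count rose from 0 to 1 with DESeq2 size factors, 3 with the upper quartile, 1 with no filter and 1 with DESeq2's Wald test, and to 0 to 10 when a library was left out, the highest without replicate A of irradiated cells, when 27.8% of all genes passed. Of all genes in control cells, 6.68% passed with DESeq2 size factors and 8.83% with the upper quartile. With no filter 6.86% passed and with DESeq2's Wald test 3.71%, against 5.72% in the main fit. For IR in RBM6-KO1 cells the count rose from 5 to 9 with no filter, when the share of all genes rose from 5.67% to 9.4%. With 1 library left out the log2 fold change of CLSPN there was -2.143 to -1.296. Leaving out a library leaves 1 in its group, which is assumed to vary like the other group. With the trend in GC content, length and expression removed, the median of the members after IR was -0.105 in control cells (from -0.004) and -0.328 in RBM6-KO1 cells (from -0.196), and without 1 library it was -0.148 to -0.086 in RBM6-KO1 cells. No value that passed changed sign in any alternative run. The interaction gave 0 passing members in every alternative run.

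The replicate letters were not taken as pairs, because the labels do not say that a letter marks a shared batch. Differences between replicates A and B correlated at -0.28 to 0.35 between groups, the highest between the irradiated control and knockout groups. The replicate block gave 5 members in untreated cells, when 8.75% of all genes passed against 6.12% in the main fit. For IR in control cells it gave 0, when 5.8% of all genes passed. For IR in RBM6-KO1 cells it gave 5, when 6.06% of all genes passed, with PKMYT1 lost and ABRAXAS1 gained.

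With 0 to 5 counts per library, no difference in ATRIP was detectable at this depth.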
